A study of Mus musculus with 9 samples.

Results

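The extracellular matrix genes described here are 58 genes that encode matrix proteins or the enzymes and chaperones that mature collagen, taken by gene symbol from a table of 53715 gene IDs. Each symbol matched exactly 1 ID. RNA sequencing had been done on mouse primary myoblasts, the precursor cells of muscle fibres, at passage 1. All cells came from the strain C57BL/10ScSn-Dmdmdx/J, which carries the mdx mutation of the dystrophin gene, so no group has intact dystrophin and both groups share the mutation. The groups differed by the labelled glycine treatment, 0.2 mM in 3 libraries and 0.8 mM in 6 libraries. The labels give neither the age of the mice nor the duration of the treatment. Nor do they tie libraries to cultures or animals, so p-values measure the spread between these libraries, which may be technical. The labels number the libraries in 2 series, each at 1 glycine level, so the series and glycine cannot be told apart.

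The matrix is a secreted meshwork. Fibrillar collagens give it tensile strength, elastic fibres and their microfibrils give recoil, proteoglycans space and hydrate the fibrils, and a basement membrane of laminins, nidogens, perlecan and type IV collagen wraps each muscle fibre. A collagen chain repeats glycine at every step of its triple helix, and the chain is hydroxylated on prolines and lysines in the endoplasmic reticulum, escorted by the chaperone HSP47, trimmed outside the cell and cross-linked by lysyl oxidases. In muscle, much of the interstitial matrix is made by fibroblasts and fibro-adipogenic progenitors, and myoblasts also make matrix proteins.

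Levels are TPM, a measure of abundance per transcript length in which each library has the same total, so levels of different genes can be compared and depth is unknown. Changes are differences of log2(TPM + 1), 0.8 mM minus 0.2 mM glycine, from a limma fit to all 10049 genes that reached 1 TPM in at least 3 libraries. A gene is said to have risen or fallen where its Benjamini-Hochberg adjusted p over all those genes was under 0.05. Means carry the SD (n = 3 at 0.2 mM, n = 6 at 0.8 mM), and single values are listed in the order of replicates 1 to 3 at 0.2 mM and as lowest, median and highest at 0.8 mM. Gene positions are from GENCODE M21 on the mouse build GRCm38, from the first to the last base of the gene.

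Most of the matrix genes that changed were higher at 0.8 mM glycine. Of the 57 tested, 27 rose, 2 fell and 28 did not pass, and Eln, elastin, was under the filter, with at most 0.231 TPM in any library. Across all genes tested 16.7% rose and 9.81% fell. The median change was 0.388 for the matrix genes and 0.0616 for all genes tested. The groups' values did not overlap for 32 of the 57 genes, where 28.2% of all genes tested did not overlap. By role, the genes that rose were 7 of 8 cross-linking and processing genes, 4 of 5 fibrillar collagens, 4 of 5 other collagens, 3 of 6 proteoglycans, 4 of 10 matricellular and adhesive genes, 3 of 10 elastic fibre genes and 2 of 13 basement membrane genes. Among all genes, 1683 rose and 986 fell, but 1414 and 1275 did so with median-ratio scaling and 1324 and 1335 with quantile normalization. Of the matrix genes 25 rose and 4 fell under the first, and 25 rose and 5 fell under the second.

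**Figure D1:**
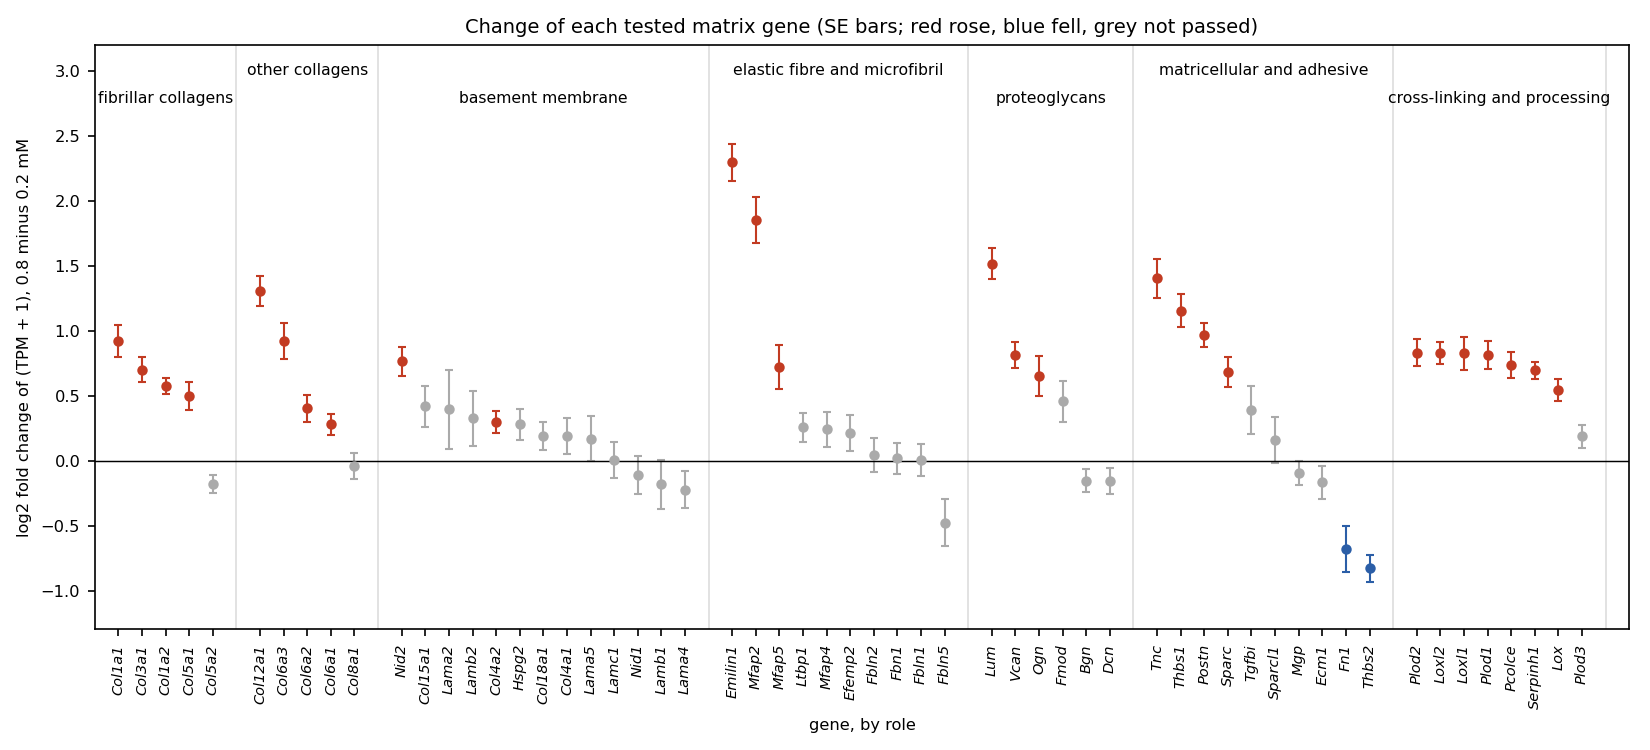
Each point is the log2 fold change of (TPM + 1) of 1 of the 57 tested matrix genes, 0.8 minus 0.2 mM glycine, on the vertical axis, with its SE, grouped by role along the horizontal axis. Red genes rose (27), blue genes fell (2) and grey genes did not pass (28), and the points run from Emilin1 at 2.30 to Thbs2 at -0.83, with the 7 red cross-linking and processing genes between 0.55 and 0.83.

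The matrix genes together took 0.468, 0.447 and 0.582% of all TPM at 0.2 mM, the highest of the 3 in replicate 3, and 0.552 to 0.648% at 0.8 mM. Sparc, Dcn and Bgn alone held 75.6 ± 0.970% of that sum at 0.2 mM and 71.0 ± 0.992% at 0.8 mM, most of the total. By role, the summed TPM of cross-linking and processing genes was 291 ± 30.1 and 471 ± 17.1, that of fibrillar collagens 281 ± 29.3 and 439 ± 36.0, and that of basement membrane genes 70.4 ± 3.24 and 79.7 ± 3.13. The proteoglycan sum differed from the others in direction, with 2425 ± 260 at 0.2 mM and 2201 ± 229 at 0.8 mM, values that overlapped. Most of it was Dcn and Bgn, which did not pass, while 3 of the 6 proteoglycan genes rose and 0 fell, with a median change of 0.553. Sums over chosen genes were not tested.

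**Figure D2:**
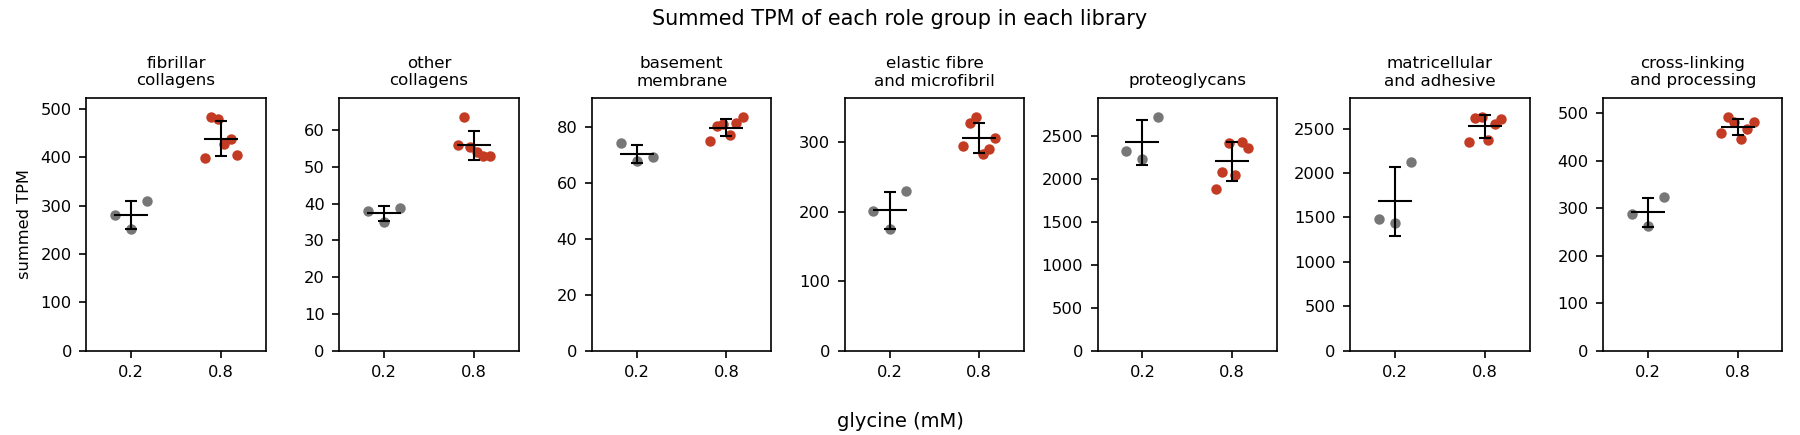
Each panel gives the summed TPM of 1 role group of matrix genes in each library at 0.2 mM (grey, 3 libraries) and 0.8 mM glycine (red, 6 libraries), on vertical axes that start at 0, with mean and SD in black. The libraries of the groups are apart in every panel but that of the proteoglycans, where 1879 to 2430 TPM at 0.8 mM lies across 2233 to 2721 TPM at 0.2 mM.

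Cell type markers show which cells the RNA may have come from. Their counts stand beside the 16.7% of all genes tested that rose and the 9.81% that fell. All 10 markers of myoblasts and muscle rose, and their summed TPM was 1695 to 2048 at 0.2 mM and 6145 to 7494 at 0.8 mM. Of 10 markers of fibroblasts and fibro-adipogenic progenitors that are not matrix genes of the set, 7 were tested, 5 rose and 0 fell, with summed TPM of 342 to 371 and 911 to 1001. Most of that sum was Ly6a, which encodes Sca-1 and also marks other cells, at 313 ± 19.6 and 901 ± 37.1 TPM. Pdgfra, the defining receptor of the progenitors, rose from 4.14 ± 1.04 to 7.55 ± 1.16 TPM, while Tcf21 was listed at 0 in every library and Clec3b in every 0.2 mM library. The calls for Pi16 and Dpep1 were lost with all 4 other scalings, and of the full list of 13, matrix genes included, 7 rose, or 4 without 0.2 mM replicate 2. Pi16 and Cd248 were under 1 TPM in every 0.2 mM library, so they were tested only through the 0.8 mM libraries. Of 11 macrophage and leukocyte markers 3 rose and 2 fell, with a median change of -0.124 and summed TPM of 1006 to 1126 and 1227 to 1666. Most of that sum was Lyz2, which rose from 588 ± 30.6 to 1013 ± 153 TPM, while Cd68 fell from 182 ± 13.6 to 57.6 ± 2.38 TPM. Of 8 endothelial markers 5 were tested and 4 rose (25.6 to 29.98 and 34.8 to 54.1 TPM), and of 8 pericyte and smooth muscle markers 2 were tested and 1 rose (4.70 to 5.80 and 8.24 to 10.0 TPM). The largest part of the endothelial sum was Egfl7, at 15.4 ± 2.15 and 22.1 ± 5.59 TPM, which did not pass. Most of the pericyte sum was Pdgfrb, at 4.20 ± 0.674 and 5.38 ± 0.659 TPM. The endothelial Pecam1 and Cdh5, and Cspg4, the pericyte gene that rose, were also under 1 TPM in every 0.2 mM library and tested only through the others. Without them 2 of 3 endothelial markers rose, and the remaining pericyte marker, Pdgfrb, did not pass. Adipocyte markers had 2 of 6 tested, of which Fabp4 rose, with Lep at 0 throughout and Adipoq and Plin1 at 0 in every 0.8 mM library. Cnn1 of smooth muscle was at 0 in every 0.2 mM library. The part of these cells in the changes of matrix genes was not tested, and more cells of a type and more RNA per cell cannot be told apart in such bulk RNA.

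Fibrillar collagen genes rose, apart from Col5a2. Col1a1 (chromosome 11, 94936224 to 94953042), which encodes the alpha 1 chain of type I collagen, was at 56.98, 51.8 and 73.6 TPM at 0.2 mM and at 104, 110.2 and 139 TPM at 0.8 mM. Every 0.8 mM library lay above every 0.2 mM library, and the change was 0.92 ± 0.12 (SE, limma adjusted p = 0.000238). Its partner chain gene Col1a2 (chromosome 6, 4504814 to 4541544) was at 57.3, 52.9 and 55.9 TPM and at 76.9, 82.0 and 88.8 TPM, again without overlap, a rise of 0.57 ± 0.06 (limma adjusted p = 5.37e-05). Col3a1 of type III collagen (chromosome 1, 45311538 to 45349706), the most abundant collagen gene here, was at 124, 108 and 138 TPM and at 177, 199.6 and 225 TPM, a rise of 0.70 ± 0.09 (limma adjusted p = 0.000253). Of the type V chains, which join type I fibrils and limit their width, Col5a1 rose from 4.72 ± 0.689 to 7.05 ± 0.463 TPM. Col5a2 was at 36.9 ± 1.54 and 32.4 ± 1.66 TPM, which left it above the threshold (limma adjusted p = 0.079) although its groups did not overlap, and it fell with 4 other scalings of the libraries, such as median-ratio scaling (limma adjusted p = 0.0148).

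The balance of chains that are assembled together, or of relatives that can replace each other, was compared as ratios of TPM. The tests were run on log2 of the ratio of TPM + 1. The ratio of Col1a1 to Col1a2 TPM was 1.10 ± 0.191 at 0.2 mM and 1.39 ± 0.109 at 0.8 mM, with overlap of the groups (exact permutation p = 0.0476, two-sided). That of Col5a1 to Col5a2 was 0.127 ± 0.0144 and 0.218 ± 0.0134, without overlap (exact permutation p = 0.0238). Col4a1 to Col4a2 gave 0.573 ± 0.137 and 0.527 ± 0.0771 (exact permutation p = 0.548), and Col6a1 to Col6a2 gave 0.811 ± 0.0952 and 0.742 ± 0.0702 (exact permutation p = 0.238). These, with Lamb1 to Lamb2 and Nid1 to Nid2 below, were 6 ratios, and after adjustment over the 6 no ratio was under 0.05 by the exact permutation test. The smallest p of 3 against 6 libraries is 0.0238, and the smallest adjusted value reached was 0.0714.

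Glycine codons, which all begin with GG, recur in the coding sequence of collagen chains. The stretch of 30 codons richest in glycine is given for Col1a1 and Col3a1. Those of Emilin1, whose transcript rose most, and of Fn1, fibronectin, which fell, are set beside them. The stretches were chosen for their glycine count, so they do not keep the regular spacing of the helix throughout. Glycine codons are irregularly spaced at the start of the Col3a1 stretch and closer together at the end of the Col1a1 stretch. Each stretch is exonic coding sequence from the GENCODE M21 transcript with the longest reading frame, in frame, 5′ to 3′, with glycine codons in capitals and codons counted from the start codon. The stretches are codons 117 to 146 of Col1a1, 162 to 191 of Col3a1, 609 to 638 of Emilin1 and 145 to 174 of Fn1.
Col1a1: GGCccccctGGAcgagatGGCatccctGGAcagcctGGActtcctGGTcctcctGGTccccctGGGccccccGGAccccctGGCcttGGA
Col3a1: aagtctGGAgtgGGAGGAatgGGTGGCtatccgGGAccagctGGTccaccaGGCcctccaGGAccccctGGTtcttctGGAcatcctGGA
Emilin1: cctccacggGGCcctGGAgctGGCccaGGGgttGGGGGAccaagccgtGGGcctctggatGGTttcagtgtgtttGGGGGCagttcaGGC
Fn1: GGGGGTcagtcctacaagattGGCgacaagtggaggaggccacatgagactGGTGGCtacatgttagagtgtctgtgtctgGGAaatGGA
Glycine filled 11 of the 30 codons shown for Col1a1, 12 for Col3a1, 11 for Emilin1 and 7 for Fn1. Over the whole reading frame 26.8% of 1453 codons of Col1a1 were glycine codons, 28.3% of 1464 in Col3a1, 13.7% of 1017 in Emilin1 and 8.20% of 2477 in Fn1.

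Collagen chain genes had the higher median share of glycine codons among the tested matrix genes, and their shares overlapped those of the other genes. Eln, which was not tested, had 36.3%. The 14 collagen chain genes had 9.07 to 28.6% glycine codons (median 24.5%), the other 43 tested matrix genes 1.92 to 13.7% (median 7.47%), and all 9353 coding genes tested a median of 6.27%. Of the collagen chain genes 9 rose and 0 fell, with a median change of 0.41, and of the other matrix genes 18 rose and 2 fell, with a median of 0.326. Among all genes tested 16.7% rose and 9.81% fell, with a median change of 0.0616. Of the 9 collagen chain genes, Col6a1, Col6a2 and Col4a2 lost their call with a library left out, as did Mfap5 and Fn1 of the others. Across the 57 genes, which share their libraries and are not independent replicates, glycine codon share and log2 fold change had a Pearson correlation of -0.0251 and a Spearman correlation of 0.00603. Col4a1, with the highest share of a tested gene at 28.6%, did not pass, and Mfap2, with 4.87%, had the second highest rise of the set.

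**Figure D3:**
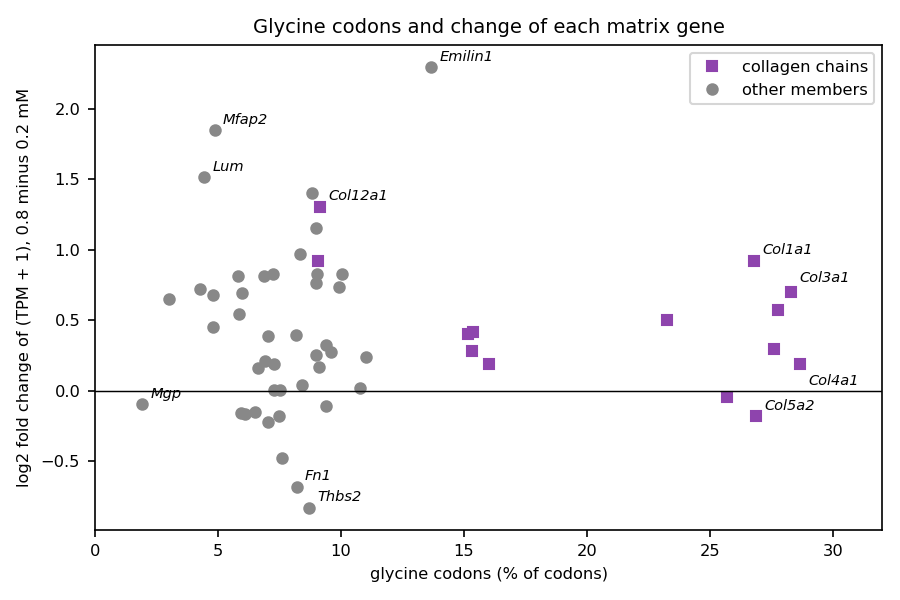
Each point is 1 of the 57 tested matrix genes, with glycine codons as a percent of its codons on the horizontal axis and the log2 fold change of (TPM + 1), 0.8 minus 0.2 mM glycine, on the vertical axis. Collagen chain genes (purple squares) reach 28.6% and other genes (grey circles) 13.7%, and points on both sides of 0 lie at high and at low glycine share.

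Among the other collagens, Col12a1, a chain that coats fibrils, changed most. Col12a1 (chromosome 9, 79598991 to 79718831) was at 2.89, 2.27 and 3.35 TPM at 0.2 mM and at 7.46, 8.68 and 9.09 TPM at 0.8 mM, a rise of 1.31 ± 0.12 (SE, limma adjusted p = 1.29e-05) with a wide gap between the groups. Type VI collagen forms beaded filaments beside the muscle basement membrane. Its chain gene Col6a3 (chromosome 1, 90765923 to 90843971) was at 6.48, 5.40 and 4.67 TPM and at 9.91, 10.6 and 14.4 TPM, a rise of 0.92 ± 0.14 (limma adjusted p = 0.000529). Col6a2 (chromosome 10, 76595762 to 76623630) was at 13.3, 11.95 and 15.1 TPM and at 15.7, 17.9 and 20.8 TPM, close but without overlap, a rise of 0.40 ± 0.10 (limma adjusted p = 0.0146). The call for Col6a2 was lost without 0.2 mM replicate 1 (limma adjusted p = 0.0503) or replicate 2 (0.0755). Col6a1 rose by 0.28 from 10.8 ± 0.158 to 13.4 ± 0.797 TPM, and this call was lost without any single 0.2 mM library or 0.8 mM replicate 5 (limma adjusted p of 0.0900, 0.0728 and 0.0655 without 0.2 mM replicates 1, 2 and 3, and 0.0502 without 0.8 mM replicate 5) and with all 4 other scalings. Without 0.2 mM replicate 1 or 2, therefore, 2 of the 5 genes of this role rose. Col8a1, a network-forming collagen, was at 4.70 ± 0.102 and 4.55 ± 0.378 TPM.

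Of 13 basement membrane genes 2 rose, or 15.4%, near the 16.7% of all genes tested. Col4a2 (chromosome 8, 11312805 to 11449287), a type IV collagen chain and the most abundant of these genes, was at 11.5, 10.0 and 11.6 TPM at 0.2 mM and at 13.0, 13.8 and 14.7 TPM at 0.8 mM, a rise of 0.30 ± 0.08 (SE, limma adjusted p = 0.0242). It did not pass without 0.2 mM replicate 2 (limma adjusted p = 0.111), with median-ratio scaling (0.0791) or with quantile normalization (0.0862). The other gene that rose was Nid2, nidogen 2, which ties laminin to collagen IV, from 1.88 ± 0.192 to 3.90 ± 0.275 TPM (0.77 ± 0.11, limma adjusted p = 0.000429), and 8.45% of its exon bases overlap Rtraf on the opposite strand. Its paralogue Nid1 was at 3.91 ± 0.618 and 3.55 ± 0.573 TPM, and the ratio of Nid1 to Nid2 TPM went from 2.09 ± 0.384 to 0.920 ± 0.189 without overlap (exact permutation p = 0.0238, 0.0714 after adjustment over the 6 ratios).

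Laminins are trimers of an alpha, a beta and a gamma chain. None of the 6 laminin genes passed, with limma adjusted p from 0.287 for Lama4 to 0.974 for Lamc1. Lama2, the alpha chain of muscle fibres, was at 0.967, 3.52 and 1.06 TPM at 0.2 mM and at 1.82, 2.14 and 4.98 TPM at 0.8 mM, so single libraries in both groups stood far above the rest. The alpha chain genes Lama4 and Lama5 were at 9.55 ± 1.57 and 8.04 ± 1.26 TPM and at 1.54 ± 0.272 and 1.89 ± 0.533 TPM. The gamma chain gene Lamc1 was at 4.43 ± 0.458 and 4.49 ± 0.761 TPM. The beta chain genes Lamb1 and Lamb2 were at 9.15 ± 2.05 and 7.98 ± 1.91 TPM and at 7.95 ± 1.82 and 10.4 ± 2.97 TPM, and their ratio was 1.19 ± 0.380 and 0.820 ± 0.250 (exact permutation p = 0.167). Perlecan (Hspg2) was at 4.30 ± 0.403 and 5.44 ± 0.600 TPM, Col4a1 at 6.26 ± 1.20 and 7.23 ± 0.897 TPM, Col15a1 at 1.04 ± 0.183 and 1.74 ± 0.388 TPM and Col18a1, the precursor of endostatin, at 7.51 ± 0.430 and 8.73 ± 0.937 TPM, and these also did not pass. Col15a1 passed without 0.8 mM replicate 6 (limma adjusted p = 0.0417) and with eBayes without a trend (0.0466).

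Elastic fibre and microfibril genes held both the highest rises of the set and genes with little change. Emilin1 (chromosome 5, 30913402 to 30921277), a glycoprotein at the interface of elastin and microfibrils, was at 5.49, 9.07 and 9.64 TPM at 0.2 mM and at 39.4, 41.96 and 48.1 TPM at 0.8 mM. That is a 5.29-fold ratio of means and a rise of 2.30 ± 0.14 (SE, limma adjusted p = 8.4e-07), rank 32 from the top among all genes tested. Mfap2 (chromosome 4, 141010418 to 141015984), a microfibril-associated glycoprotein that binds fibrillin, was at 4.95, 2.85 and 4.09 TPM and at 12.4, 16.96 and 20.2 TPM, a rise of 1.85 ± 0.18 (limma adjusted p = 2.11e-05). Both genes were far apart between the groups. Its relative Mfap5 (chromosome 6, 122505845 to 122529290) was at 79.2, 54.1 and 74.5 TPM and at 88.3, 117.5 and 146 TPM, a rise of 0.72 ± 0.17 (limma adjusted p = 0.00905) that was lost without 0.2 mM replicate 2 (0.0517).

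The other 7 tested genes of this role did not pass. Fbn1, fibrillin 1, the core of the microfibril, was at 6.21 ± 0.912 and 6.29 ± 0.633 TPM, and 20.1% of its exon bases overlap Gm9913 on the opposite strand. The fibulin genes Fbln1 and Fbln2 were at 2.87 ± 0.451 and 2.88 ± 0.250 TPM and at 32.2 ± 4.31 and 33.3 ± 4.90 TPM. For these genes the estimated change was between 0.007 and 0.043, and it was below 0 with median-ratio scaling and quantile normalization. Fbln5, a fibulin needed for elastic fibres, was at 4.99 ± 0.929 and 3.34 ± 0.802 TPM (limma adjusted p = 0.0728) and passed with median-ratio scaling (0.0409), with quantile normalization (0.0432) and without 0.8 mM replicate 3 (0.0450). Efemp2, fibulin 4, which brings lysyl oxidase to elastin, was abundant at 63.7 ± 15.2 and 72.96 ± 7.93 TPM and passed without 0.2 mM replicate 3 (limma adjusted p = 0.0383). Mfap4 was at 5.87 ± 0.869 and 7.13 ± 1.09 TPM, and Ltbp1, which holds latent TGF-beta in the matrix, at 4.71 ± 0.227 and 5.84 ± 0.621 TPM without overlap.

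**Figure D4:**
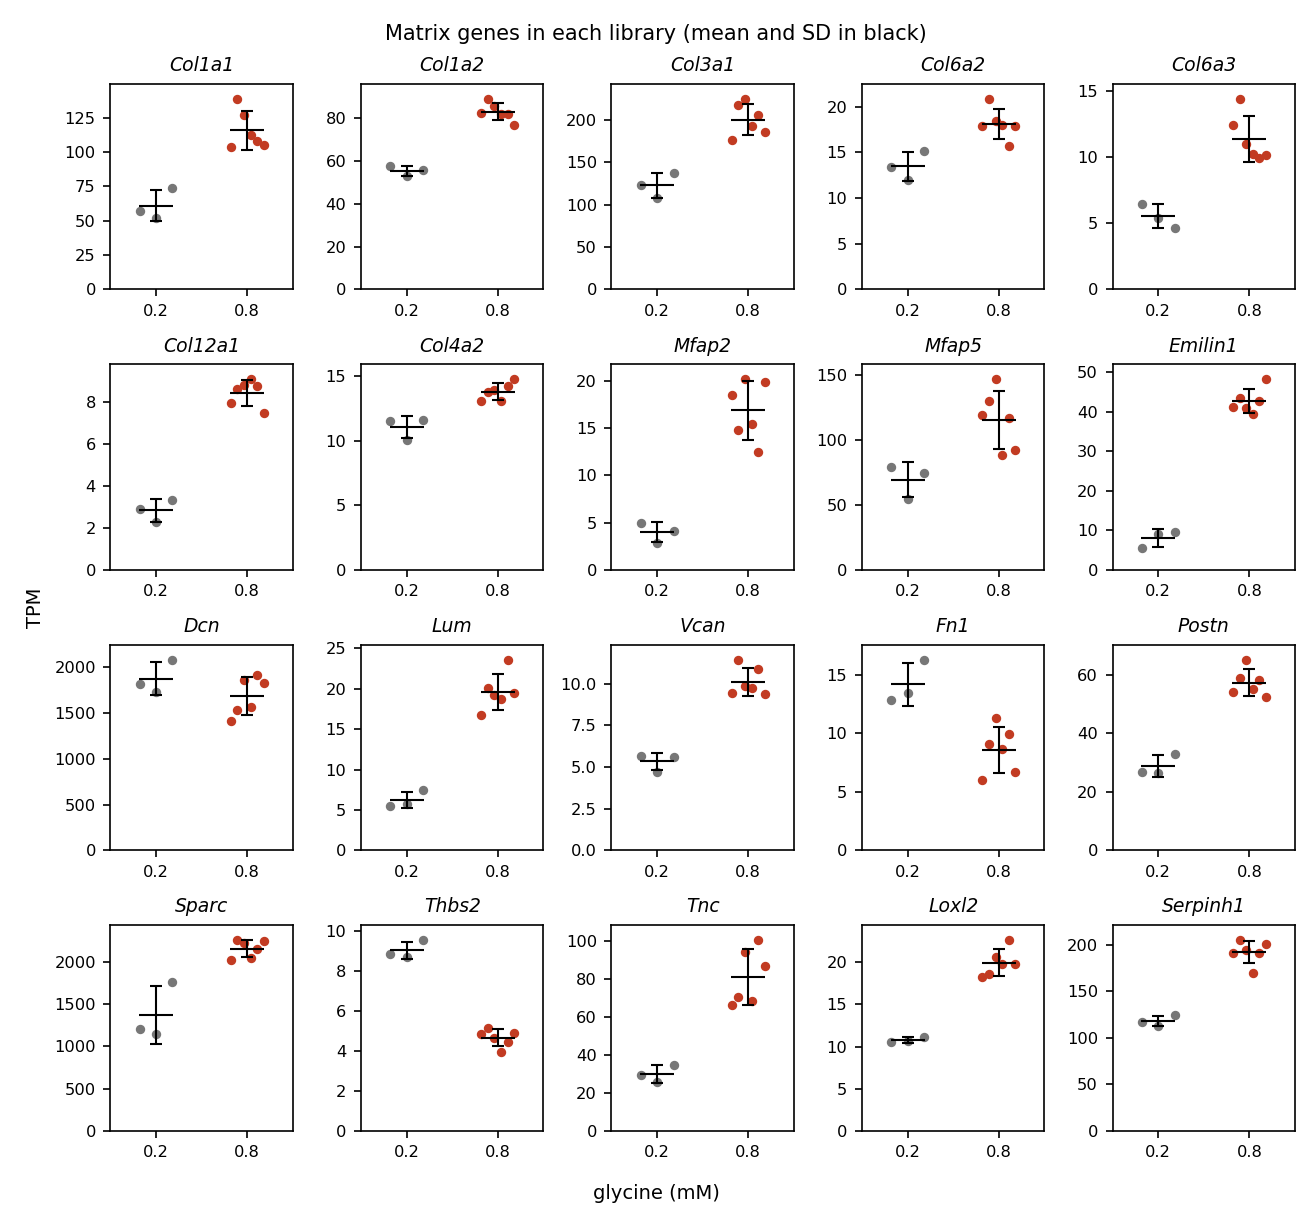
Each panel gives the TPM (vertical axis, from 0) of 1 matrix gene in each library at 0.2 mM (grey, 3 libraries) and 0.8 mM glycine (red, 6 libraries), with mean and SD in black, for the most abundant gene of each role and those with the smallest p in each direction. The groups are apart in every panel but that of Dcn (1878 and 1689 TPM on average), and Fn1 and Thbs2 are the panels in which the 0.8 mM libraries lie below.

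Both abundant proteoglycans did not pass, and 3 of the less abundant ones rose. Dcn, decorin (chromosome 10, 97479609 to 97518143), a small leucine-rich proteoglycan that binds collagen fibrils and the most abundant of this role, was at 1822, 1729 and 2083 TPM at 0.2 mM and at 1412, 1702 and 1916 TPM at 0.8 mM. Its groups overlapped and it did not pass (-0.16 ± 0.10, limma adjusted p = 0.292). Bgn, biglycan, was at 528 ± 77.4 and 473 ± 32.2 TPM and passed downward with quantile normalization alone (limma adjusted p = 0.00088). Lum, lumican (chromosome 10, 97565128 to 97572703), which also binds fibrils, was at 5.51, 5.79 and 7.41 TPM and at 16.8, 19.3 and 23.6 TPM, a rise of 1.52 ± 0.12 (limma adjusted p = 4.9e-06). Lum lies beside Dcn on chromosome 10. Vcan, versican, a large hyaluronan-binding proteoglycan (chromosome 13, 89655312 to 89742509), was at 5.66, 4.73 and 5.61 TPM and at 9.38, 9.81 and 11.4 TPM, a rise of 0.81 ± 0.10 (limma adjusted p = 0.000161). Ogn, osteoglycin, rose from 2.27 ± 0.271 to 4.18 ± 0.876 TPM. Fmod, fibromodulin, was at 4.03 ± 0.939 and 5.87 ± 0.946 TPM (limma adjusted p = 0.0568). It passed without 0.8 mM replicate 1 (0.0420), with library weights (0.0486) and among genes with a mean of at least 5 TPM (0.0490).

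Matricellular and adhesive proteins, which signal to cells more than they build the scaffold, moved in both directions. Tnc, tenascin C (chromosome 4, 63959785 to 64047015), a glycoprotein of remodelling matrix, was at 29.3, 25.5 and 34.96 TPM at 0.2 mM and at 66.3, 78.9 and 101 TPM at 0.8 mM, a rise of 1.40 ± 0.15 (SE, limma adjusted p = 4.91e-05). Postn, periostin (chromosome 3, 54361109 to 54391037), was at 26.9, 26.5 and 33.0 TPM and at 52.4, 56.6 and 65.1 TPM, a rise of 0.97 ± 0.09 (limma adjusted p = 2.08e-05). Neither gene had overlapping groups. Sparc (chromosome 11, 55394500 to 55423183), a collagen-binding glycoprotein and the gene with the highest average of the set, was at 1200, 1149 and 1760 TPM and at 2026, 2189 and 2255 TPM, a rise of 0.68 ± 0.11 (limma adjusted p = 0.00108), with 0.2 mM replicate 3 nearest to the other group.

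The thrombospondins went opposite ways. Thbs1, which can activate latent TGF-beta, rose from 4.51 ± 0.292 to 11.3 ± 1.68 TPM (1.15 ± 0.13, limma adjusted p = 5.87e-05). Thbs2 (chromosome 17, 14665500 to 14694235), a close relative, was at 8.81, 8.69 and 9.52 TPM and at 3.94, 4.72 and 5.14 TPM, a log2 fold change of -0.83 ± 0.10 (limma adjusted p = 0.000151). Fn1, fibronectin (chromosome 1, 71585520 to 71653200), the adhesive protein on which fibrils assemble, was at 12.8, 13.5 and 16.3 TPM and at 6.04, 8.83 and 11.2 TPM. Fn1 fell by 0.68 ± 0.17 (limma adjusted p = 0.0145), a call lost without 0.2 mM replicate 3 (0.0694), and the groups of both Thbs2 and Fn1 were apart. The remaining 4 did not pass, with Ecm1 at 172 ± 35.9 and 152 ± 17.7 TPM, Mgp, an inhibitor of calcification, at 46.2 ± 0.905 and 43.5 ± 4.55 TPM, Tgfbi at 4.20 ± 0.725 and 5.89 ± 1.46 TPM and Sparcl1 at 1.62 ± 0.625 and 1.88 ± 0.326 TPM.

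Cross-linking and collagen processing genes rose by similar amounts, 0.55 to 0.83, and none of the 7 that rose lost its call when any single library was left out. Serpinh1 (chromosome 7, 99345376 to 99353239), which encodes HSP47, the chaperone of procollagen, was at 117, 113 and 124 TPM at 0.2 mM and at 170, 193 and 205 TPM at 0.8 mM, a rise of 0.69 ± 0.07 (SE, limma adjusted p = 1.84e-05). Loxl2 (chromosome 14, 69609068 to 69695834), a lysyl oxidase that cross-links collagen IV, was at 10.5, 10.7 and 11.1 TPM and at 18.3, 19.8 and 22.6 TPM, a rise of 0.83 ± 0.09 (limma adjusted p = 3.88e-05). The groups of both genes lay well apart. Lox, the founding lysyl oxidase, rose from 49.7 ± 6.17 to 72.7 ± 4.44 TPM, and Loxl1, which acts on elastin, from 16.4 ± 3.72 to 29.6 ± 2.77 TPM. Of the lysyl hydroxylase genes, Plod1 rose from 7.20 ± 0.993 to 13.4 ± 1.20 TPM and Plod2, which acts on the ends of collagen chains, from 6.98 ± 0.854 to 13.2 ± 1.06 TPM. Plod3, which also adds sugars to hydroxylysine, was at 12.3 ± 1.03 and 14.1 ± 0.784 TPM without overlap, and its change was not past the threshold (limma adjusted p = 0.142). Pcolce, which speeds removal of the C-terminal propeptide, rose from 69.8 ± 13.6 to 116 ± 5.00 TPM.

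Genes outside the set that act on the same collagens were counted in 3 lists, beside the 16.7% of all genes tested that rose and the 9.81% that fell. Of 17 tested genes of collagen hydroxylation and folding, 9 rose, 0 fell and 8 did not pass, with a median change of 0.508. P4hb, the disulfide isomerase that is also the beta subunit of prolyl 4-hydroxylase, rose from 71.2 ± 8.08 to 166 ± 11.2 TPM (1.21 ± 0.08, limma adjusted p = 1.39e-06). Its catalytic partners P4ha1 and P4ha3 rose by 0.53 and 0.68, and P4ha2, at 121 and 135 TPM on average, did not pass (limma adjusted p = 0.206). Ppib, cyclophilin B, rose from 275 ± 11.2 to 392 ± 16.8 TPM and Fkbp14 from 1.01 ± 0.119 to 3.85 ± 0.720 TPM, both prolyl isomerases that help collagen fold, and Ppib shares 25% of its exon bases with Snx22 on the opposite strand. Sdf2l1, a cochaperone of the endoplasmic reticulum with clients beyond collagen, rose from 6.84 ± 2.19 to 21.2 ± 1.71 TPM. P3h1 and P3h4 of prolyl 3-hydroxylation and Fkbp10 rose by 0.89, 0.96 and 0.78.

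Export and trimming genes were less uniform, where 16.7% of all genes tested rose and 9.81% fell. Of 11 procollagen export genes, 4 rose and 0 fell (median 0.354), and all 4 belong to the COPII machinery that buds cargo from the endoplasmic reticulum and serves secreted proteins in general. They were Sec13, from 34.0 ± 4.75 to 64.6 ± 5.23 TPM, Sar1a, from 24.8 ± 4.99 to 44.0 ± 4.43 TPM, Sec31a, from 7.39 ± 2.19 to 12.2 ± 1.57 TPM, and Sec24d, from 6.75 ± 2.26 to 14.9 ± 4.78 TPM. Sec24d was lost without 0.2 mM replicate 1 or 3 (limma adjusted p up to 0.102) and Sec31a without 0.2 mM replicate 2 (0.0533). Mia3 (TANGO1), the receptor that loads procollagen, with averages of 10.0 and 12.8 TPM, did not pass (limma adjusted p = 0.0945) but did so without 0.2 mM replicate 1 (0.0294). Of 7 tested trimming and other cross-linking genes, 3 rose and 1 fell (median 0.234). Bmp1, the C-proteinase that Pcolce assists, rose from 18.2 ± 3.00 to 25.7 ± 1.96 TPM and Loxl3 from 5.53 ± 0.282 to 10.9 ± 1.98 TPM, while Tgm2, a transglutaminase, fell from 14.4 ± 0.394 to 7.01 ± 0.708 TPM. Genes on the opposite strand overlap 21.8% of the exon bases of Tgm2 and 11.6% of those of Loxl3. Pxdn, peroxidasin, rose by 0.46 and was lost without 0.2 mM replicate 2 (limma adjusted p = 0.0566).

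**Figure D5:**
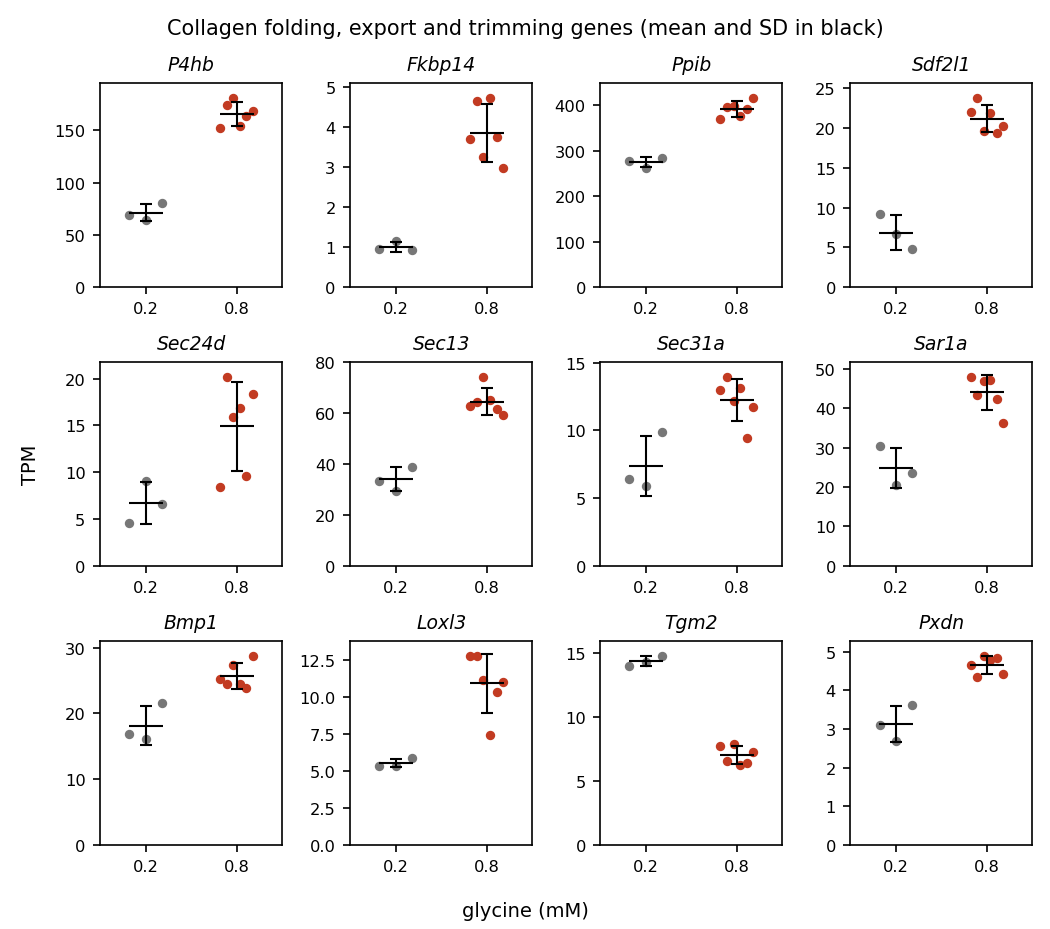
Each panel gives the TPM (vertical axis, from 0) of 1 gene of collagen folding, export or trimming in each library at 0.2 mM (grey, 3 libraries) and 0.8 mM glycine (red, 6 libraries), with mean and SD in black. The 0.8 mM libraries are higher on average in every panel but that of Tgm2 (14.4 and 7.01 TPM), and single libraries of the groups overlap for Sec24d and Sec31a.

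Other matrix genes outside the set were mostly at low levels. Their counts also stand beside 16.7% of all genes tested that rose and 9.81% that fell. Of 30 other collagen chain genes only 4 were tested, of which 3 rose, or 1 of the 2 that did not owe their place in the test to the 0.8 mM libraries alone. Col5a3 of type V collagen rose from 6.98 ± 0.186 to 13.2 ± 0.526 TPM (0.83 ± 0.08, limma adjusted p = 2.23e-05), so of the type V chain genes Col5a1 and Col5a3 rose and Col5a2 did not pass. Col24a1 rose from 0.0742 ± 0.0520 to 1.66 ± 1.19 TPM and was lost without 0.2 mM replicate 1, 2 or 3 or 0.8 mM replicate 1, 3 or 5 (limma adjusted p up to 0.0897) and with no filter (0.0852). Col26a1 went from 0.323 ± 0.164 to 2.28 ± 1.42 TPM, a rise lost without 0.2 mM replicate 2 or 3 (limma adjusted p up to 0.0751) and with no filter (0.0638). Both genes were under 1 TPM in every 0.2 mM library, so their calls support nothing about the chains as a whole. Col16a1, the other one tested, was at 5.70 ± 1.45 and 3.86 ± 0.667 TPM without overlap (-0.45 ± 0.16, limma adjusted p = 0.0649), and fell with median-ratio scaling (0.0347), quantile normalization (0.0369) and library weights (0.0446). Of 32 tested other glycoproteins and proteoglycans 10 rose, 1 fell and 21 did not pass, with a median of 0.120, and 4 fell with median-ratio scaling or with quantile normalization. Of the 10, 3 were under 1 TPM in every 0.2 mM library and entered the test through the 0.8 mM libraries alone, and 7 of the other 29 rose. Aspn, asporin, a relative of decorin, rose from 2.24 ± 0.219 to 10.4 ± 1.12 TPM (1.81 ± 0.11, limma adjusted p = 8.97e-07), Smoc2 from 17.4 ± 2.67 to 40.4 ± 3.89 TPM, Cthrc1 from 2.81 ± 0.430 to 7.14 ± 1.67 TPM and Srpx2 from 9.58 ± 1.07 to 16.5 ± 1.74 TPM. The 1 that fell was Ccn4, named here because its count is 1, from 13.7 ± 1.42 to 9.55 ± 1.26 TPM, and it was lost without 0.2 mM replicate 2 or 3 (limma adjusted p up to 0.0648).

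Receptors for the matrix were also counted, beside the 16.7% of all genes tested that rose and the 9.81% that fell. Of 16 tested, 9 rose, 2 fell and 5 did not pass, with a median of 0.432, and 8 and 7 rose with median-ratio scaling and quantile normalization. With a library left out 6 to 9 rose, the fewest without 0.2 mM replicate 1. Dag1, dystroglycan, a laminin receptor, rose by 1.18 to 19.4 ± 1.76 TPM, Sdc1, the heparan sulfate proteoglycan syndecan 1, from 13.6 ± 2.57 to 30.7 ± 2.83 TPM, Sdc3 from 5.51 ± 0.945 to 9.12 ± 1.17 TPM, and Itgb3, an integrin beta chain, from 0.639 ± 0.0868 to 2.26 ± 0.154 TPM. Itgb3 was under 1 TPM in every 0.2 mM library and so was tested only through the 0.8 mM libraries, and 8 of the other 15 receptors rose. The genes that fell, named for their count of 2, were Ddr2, a receptor for fibrillar collagen, from 23.7 ± 2.65 to 13.4 ± 3.31 TPM, and Cd44, a hyaluronan receptor, from 21.7 ± 1.98 to 17.1 ± 0.710 TPM, the latter lost without 0.2 mM replicate 1 (limma adjusted p = 0.0743). Ddr2 fell while the fibrillar collagens Col1a1, Col1a2 and Col3a1 rose.

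Promoters were examined for matrix genes that moved together or apart. RefSeq promoter windows on GRCm38.p6 were available for 39 of the 58 genes, and the 250 bases before the start were searched on both strands. The motifs were the CCAAT box with these letters, the TATA box as TATAAA, the GC box as GGGCGG, an E-box as CAGCTG and an AP-1 site as TGAGTCA, each counted whether or not it overlapped another. Some genes have several windows that share sequence. The genes with no window were Col1a1, Col5a2, Col12a1, Lama4, Lamc1, Nid2, Eln, Mfap4, Mfap5, Dcn, Lum, Fn1, Sparcl1, Thbs1, Mgp, Lox, Loxl1, Loxl2 and Plod2. The GC box was in 28 of 49 windows of matrix genes (57.1%) and in 32.7% of 32851 windows of all genes. Its share was the same in genes that rose, 12 of 21 windows (57.1%), and in the other matrix genes, 16 of 28 (57.1%). The TATA box was in 6 of 21 windows of genes that rose (28.6%), in 2 of 28 windows of the other matrix genes (7.14%) and in 12.4% of all windows. The E-box was in 4 of 21 (19.0%), 2 of 28 (7.14%) and 13.0%, the CCAAT box in 4 of 21 (19.0%), 8 of 28 (28.6%) and 33.8%, and the AP-1 site in 1 of 21 (4.76%), 1 of 28 (3.57%) and 4.46%. A match describes letters only.

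Of these stretches 4 are shown, each 250 bases before the RefSeq start, 5′ to 3′ on the strand of the gene, with matched motifs in capitals: Col1a2, a chain of type I collagen (chr6:4505368-4505617, plus strand), Emilin1 and Mfap2, the highest rises (chr5:30913536-30913785 and chr4:141010174-141010423, plus strand), and Thbs2, which fell (chr17:14694263-14694512, minus strand).
Col1a2: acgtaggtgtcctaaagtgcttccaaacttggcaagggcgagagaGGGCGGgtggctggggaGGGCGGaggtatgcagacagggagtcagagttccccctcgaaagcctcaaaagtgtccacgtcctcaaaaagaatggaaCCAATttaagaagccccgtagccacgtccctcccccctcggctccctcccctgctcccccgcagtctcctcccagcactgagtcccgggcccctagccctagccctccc
Emilin1: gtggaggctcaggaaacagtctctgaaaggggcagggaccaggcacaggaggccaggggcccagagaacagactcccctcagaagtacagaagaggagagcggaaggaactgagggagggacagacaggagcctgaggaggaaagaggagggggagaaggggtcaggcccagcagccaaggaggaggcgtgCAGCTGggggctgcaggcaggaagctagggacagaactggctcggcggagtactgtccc
Mfap2: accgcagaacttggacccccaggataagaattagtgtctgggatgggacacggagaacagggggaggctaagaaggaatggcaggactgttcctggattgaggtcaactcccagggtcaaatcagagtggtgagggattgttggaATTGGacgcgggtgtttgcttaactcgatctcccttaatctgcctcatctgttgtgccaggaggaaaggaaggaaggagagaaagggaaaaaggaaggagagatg
Thbs2: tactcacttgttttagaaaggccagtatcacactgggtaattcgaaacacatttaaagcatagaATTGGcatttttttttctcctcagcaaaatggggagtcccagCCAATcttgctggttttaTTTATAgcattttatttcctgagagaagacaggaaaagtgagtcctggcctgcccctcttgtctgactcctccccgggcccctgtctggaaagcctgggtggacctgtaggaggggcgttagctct
The RefSeq and GENCODE starts differ, and by the GENCODE gene positions all 250 bases shown for Col1a2 and for Emilin1, and the last 6 for Mfap2, lie inside the gene. In Col1a2 the capitals are GC boxes that begin 205 and 188 bases before the start and a CCAAT box at 109. Emilin1 has an E-box at 59 bases before the start, and Mfap2 a CCAAT box on the opposite strand at 105. Thbs2 has CCAAT boxes at 186 and 144 and a TATA box at 126, the first and last on the opposite strand.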

How the data were processed

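RNA was measured in 9 libraries of mouse primary myoblasts. The authors deposited 1 table of TPM, and no other per-library columns were left unmatched. Per the submitters' processing notes, HISAT2 2.0.5, StringTie 1.3.3 and DESeq2 were used with mm10, with the order, settings, annotation release and use of strand not given in the sources used here. Libraries were made from total RNA with a TruSeq kit, per the labels' protocols. Depth is unknown from TPM, so no interval is given. Because strand use is not given, reads from overlapping genes on opposite strands cannot be told apart.

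TPM are not counts, so log2(TPM + 1) was fitted with limma 3.58.1 in R 4.3.3 (lmFit, eBayes with a trend, two-sided, 3 against 6 libraries, no covariate), over genes with at least 1 TPM in at least 3 libraries. Ratios used two-sided exact permutation tests in SciPy 1.17.1, on log2 of the ratio of TPM + 1. The fit was tested on simulated data. Positions, exon overlaps and reading frames came from GENCODE M21 (GRCm38). Older symbols were matched through RefSeq synonyms (Ccn4 is listed as Wisp1). The members, their 7 roles, the lists and the rule for named genes were chosen with earlier results of these data known. That rule gives full values, in each role, for the most abundant gene and for up to 2 genes that rose and 2 that fell with the smallest p at a mean of at least 5 TPM, and up to 4 genes of each other list. A planned share of glycine in proteins was replaced by glycine codons. Alternatives were pseudocounts of 0.1 and 0.5, no filter or a mean of 5 TPM, 4 other scalings, eBayes without trend or robust, library weights, a 1.5-fold minimum, each library left out, and libraries 1 to 3 with and without a replicate block. The result of 1 marker list is not reported here.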

Additional observations from a re-analysis of the deposited data

Results flagged for a closer look

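Among 57 tested matrix genes, 4 had a library at 0.8 mM glycine that lay far from the other 5, judged by the gap to its nearest neighbour as a share of the group's range, and chance gives about 5% of groups. Col18a1 was at 6.96 TPM in replicate 4 and at 8.67 to 9.60 TPM in the others. Lama2 was at 4.98 TPM in replicate 3 and at 1.82 to 2.54 TPM in the others. Lamb2 was at 15.9 TPM in replicate 6 and at 6.95 to 10.2 TPM in the others. Plod2 was at 11.1 TPM in replicate 1 and at 13.2 to 14.1 TPM in the others, all above the 0.2 mM libraries.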

How the results depend on the processing

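Of the 29 matrix genes that changed, 19 kept their call under each of the 23 alternatives, Nid2 kept it under those in which it was tested (its mean is under 5 TPM), and 0 changed direction. Those lost with a library left out were Col6a1, Col6a2, Col4a2, Mfap5 and Fn1. Col5a1 and Ogn were lost with libraries 1 to 3 and the replicate block (limma adjusted p = 0.0895 and 0.0597). Col1a2 and Lox, with changes of 0.57 and 0.55, were lost with the 1.5-fold minimum. With a minimum of 1.5-fold, 1121 genes rose and 515 fell, of them 21 and 2 matrix genes. Matrix genes that fell numbered 4 with median-ratio scaling, 5 with quantile normalization and 1 to 3 with a library left out. Same-numbered libraries had correlations of 0.0229, 0.0300 and 0.0812, and differently numbered ones of -0.104 to 0.0799. So few and small values do not settle whether the numbers pair the libraries. With libraries 1 to 3 and the replicate block, 1117 genes rose and 596 fell, and without the block 1 matrix gene fell. Of genes that did not pass, 6 changed sign, by small amounts. With median-ratio scaling and quantile normalization the log2 fold changes were -0.0637 and -0.0623 for Lamc1, -0.0554 and -0.0599 for Fbn1, -0.0581 and -0.0598 for Fbln1, and -0.0416 and -0.0474 for Fbln2. Without ribosomal RNA and mitochondrial genes, or without the 10 most abundant genes, they were -0.0246 and -0.0294 for Lamc1, -0.0135 and -0.0179 for Fbn1, and -0.0216 and -0.0263 for Fbln1. With libraries 1 to 3, with or without the replicate block, they were 0.0185 for Col8a1, -0.0240 for Fbln1 and -0.0128 for Fbln2. With each library left out they ran from -0.0614 to 0.0614 for Lamc1, -0.0750 to 0.109 for Fbn1, -0.0503 to 0.1004 for Fbln1, -0.0698 to 0.114 for Fbln2 and -0.0510 to 0.298 for Sparcl1. The log2 difference of the Col4a1 to Col4a2 ratio ran from -0.289 to 0.0193. The cause of these changes was not tested. The unknown depth sets no limit that can be stated for low genes.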
